A study of Caenorhabditis elegans with 2 samples.

Results

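Genes that set or carry out X-chromosome dosage compensation in Caenorhabditis elegans, not a complete list, were examined for sites of the BTB-domain protein F10B5.3. They were chosen by name in the Ensembl annotation and comprised 10 of 19973 nuclear protein-coding genes: xol-1, sdc-1, sdc-2, sdc-3, dpy-21, dpy-26, dpy-27, dpy-28, dpy-30 and mix-1. F10B5.3 had been mapped by chromatin immunoprecipitation and sequencing (ChIP-seq) with an antibody against green fluorescent protein in 2 biological replicates of 1 group. Both were whole hermaphrodites of strain OP529, carrying unc-119(tm4063) on chromosome III and the integrated transgene wgIs529, which expresses F10B5.3 with a C-terminal GFP-FLAG tag. The worms were L4 larvae, 48 hours after the population was synchronized by bleaching and L1 starvation. The promoter of the transgene is not given in the sources used here, and each library came from whole animals and so mixes all tissues. There was no second genotype or treatment, so the values below are descriptions without a test.

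Dosage compensation makes the expression of X-linked genes similar in XO males and XX hermaphrodites. In males the switch gene xol-1 is active in the early embryo and keeps sdc-2 off. In hermaphrodites xol-1 is repressed, SDC-2 is made, and it brings a condensin-based complex to recruitment sites on both X chromosomes, from where the complex spreads and lowers transcription. A short DNA motif enriched on X, called MEX, marks many of these recruitment sites, and its core is GCGCAGGG.

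The site with the highest signal near any of the 10 genes lay upstream of xol-1 and held this core on both strands. Its sequence, in ce11 (WBcel235) on the plus strand, is shown for the 75 bases on either side of the summit, with the matches to the core or its reverse complement in capitals.
xol-1 upstream peak, X:8036395-8036545: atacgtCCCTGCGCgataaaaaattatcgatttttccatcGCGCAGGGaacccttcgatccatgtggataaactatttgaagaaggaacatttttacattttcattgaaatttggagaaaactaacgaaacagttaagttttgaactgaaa
The first match, at X:8036401-8036408, reads as the core on the minus strand and lay 62 bp from the summit. The second, at X:8036435-8036442, reads on the plus strand and lay 28 bp from it. Between the matches were 26 bases, and the cores pointed away from each other. With 6 bases of flank, each oriented so that the core in capitals reads from 5′ to 3′, the pair at xol-1 is set below beside the cores of the 4 X-chromosome peaks with the highest signal, which were picked after their values were seen and are labelled by the gene with the nearest transcription start site (TSS).
xol-1, X:8036395-8036414, minus strand: tttatcGCGCAGGGacgtat
xol-1, X:8036429-8036448, plus strand: tccatcGCGCAGGGaaccct
W02H3.3, X:11094119-11094138, minus strand: tatatcGCGCAGGGagctta
W02H3.3, X:11094220-11094239, minus strand: ccattcGCGCAGGGacacct
nspc-17, X:14525894-14525913, minus strand: cctatcGCGCAGGGacagat
F20B6.9, X:4209260-4209279, minus strand: gctatcGCGCAGGGacacct
gtr-1, X:806668-806687, plus strand: attatcGCGCAGGGgtgttt
gtr-1, X:806744-806763, plus strand: cgatacGCGCAGGGaaaaaa
Both xol-1 cores were preceded by the letters atc and followed by an a. The letters atc also preceded the core at 1 of the W02H3.3 sites, at nspc-17, at F20B6.9 and at 1 of the gtr-1 sites.

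Peak calls came as 4 lists in the ce11 build. A relaxed list with weak as well as strong calls held 30000 calls for the pool of both replicates, 22211 for replicate 1 and 27642 for replicate 2. The irreproducible discovery rate (IDR) set held 862 peaks, 839 of them nuclear, and these were the 862 pooled calls with the highest signal, down to a signal of 86.5. The signal is the authors' own value for each call from their peak caller, on a scale that is not stated, and it is used here only to rank and describe calls within a list. Read depth is unknown, since no read counts were used. A call belonged to a gene if its summit lay in the gene body or within 5000 bp of it, and ranks count nuclear calls only.

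The strongest call was near xol-1, and IDR peaks lay near xol-1, sdc-2, dpy-21, dpy-28 and mix-1. These were 5 of the 10 genes, with 7 IDR summits in all. Among all protein-coding genes 10.8% had an IDR summit in the same kind of window. Of the 3 X-linked genes, xol-1 and sdc-2 had one, against a share of 14.5% of X-linked genes in the genome. Of the 7 autosomal genes, dpy-21, dpy-28 and mix-1 had one, against 10.2% of autosomal genes. The 10 genes are long, with a median length of 7916 bp against 2027 bp for all protein-coding genes, which widens their windows, and the part of length in the count was not tested. In the pooled relaxed list 9 of the 10 genes had at least 1 call, and sdc-3 had none. Across the genome 81.8% of genes had such a call, with 85.8% of X-linked and 81.2% of autosomal genes.

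**Figure D1:**
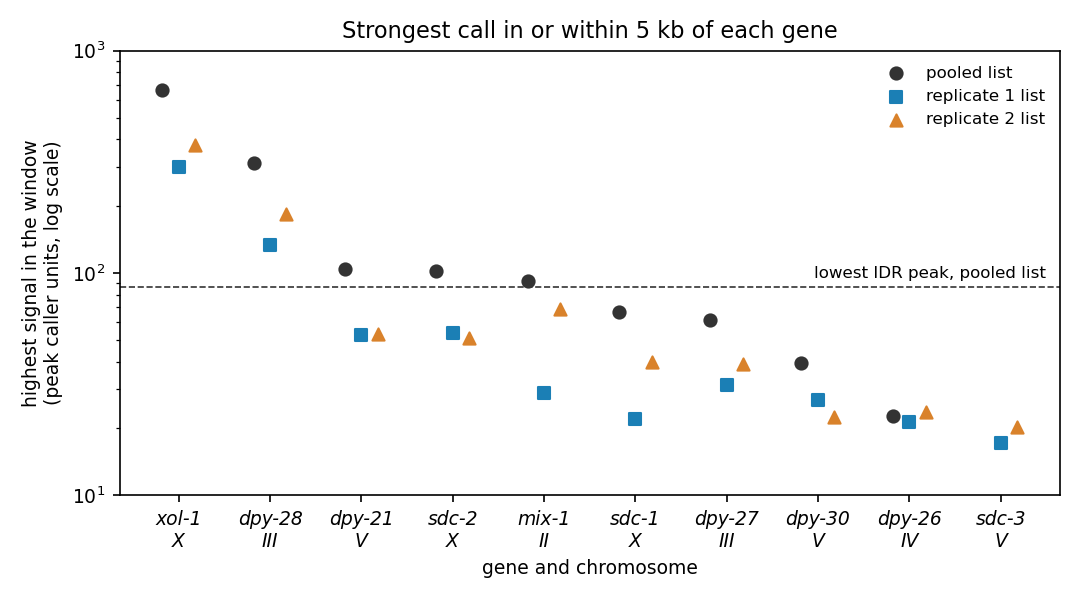
Highest peak-caller signal (log scale) in the gene body or within 5000 bp of each gene, in the pooled list and in each replicate's list, ordered by the pooled value. xol-1 stands highest in all 3 lists (667, 301 and 378), dpy-28 is next, and sdc-3 has no pooled call. The dashed line is the lowest IDR peak, 86.5, and applies to pooled values.

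xol-1 (WBGene00006962, X:8041313-8044409, plus strand) encodes a protein of the GHMP kinase fold that acts as the male switch. Its window held 10 pooled calls, 6 in replicate 1 and 11 in replicate 2. The highest, at X:8036190-8036691 with its summit at 8036470, had a signal of 667 in the pool, 301 in replicate 1 and 378 in replicate 2. It ranked 17 of 29977 nuclear calls in the pool, 13 in replicate 1 and 17 in replicate 2, and the replicate summits lay 2 and 41 bp from the pooled one. On X it ranked 14. Placed between protein-coding genes, the summit was 204 bp from the non-coding RNA C18A11.13 and 215 bp from the tRNA gene WBGene00022939. It was 4843 bp upstream of the xol-1 TSS, which was also the nearest protein-coding TSS.

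Its distance put this summit close to the edge of the window, and C34D10.1, whose window reached the same peak, tied with xol-1 at 667. By the highest signal in its window xol-1 ranked 44 among protein-coding genes in the pool, 31 in replicate 1 and 44 in replicate 2. A lower value was found at 99.8% of all genes in each list, and at 98.9% of X-linked genes in the pool. Next above in the order were F55G7.3 and F55G7.5 at 680 on X, with timm-17B.1 on chromosome IV above them at 687. Next below were H11E01.2, ZK380.2 and fbxb-58 at 639, all on X. Genes whose windows reach 1 peak share its value.

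A second IDR summit lay 4644 bp upstream of the xol-1 TSS, at 8036669 in the overlapping call X:8036190-8036699. It was 16 bp from the tRNA gene WBGene00022939 (X:8036685-8036757, minus strand), and 5 bp from the annotated non-coding RNA C18A11.13. In replicate 2 both summits lay in the same interval, X:8036227-8036663. Other IDR peaks also lay near small RNA genes: 72 of 215 on X and 148 of 624 on autosomes were within 200 bp of a tRNA, snoRNA or snRNA gene. The share was not counted for calls outside the IDR set or along the chromosomes. The signal of the second summit was 130 in the pool (rank 355), 89.3 in replicate 1 (rank 145) and 64.8 in replicate 2 (rank 504). No match to the MEX core was found within 150 bp of this summit. Its surroundings did hold the letters TCGAACC, the reverse complement of GGTTCGA, which begins the internal promoter element (B box) of tRNA genes. That match lay inside the tRNA gene WBGene00022939 itself. The motif was searched because it was noticed in the sequence, shown here with that match in capitals.
xol-1 second summit, X:8036594-8036744: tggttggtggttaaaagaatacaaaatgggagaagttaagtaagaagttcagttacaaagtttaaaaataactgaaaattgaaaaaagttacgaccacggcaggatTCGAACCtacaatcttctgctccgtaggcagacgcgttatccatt
Of 71 words of 31 bases within 50 bp of this summit, 9 occur elsewhere in the genome. The higher xol-1 summit had 0 of 71 such words.

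The third IDR peak in the xol-1 window lay on the other side of the gene, at X:8048600-8049049. Its summit at 8048825 was 4416 bp past the gene's end and beyond the next gene, C18A11.4, whose TSS was the nearest at 3307 bp. The signal was 91.1 in the pool (rank 760), 32.8 in replicate 1 (rank 1686) and 54.4 in replicate 2 (rank 723), and the pooled value was close to 86.5, the lowest of the IDR set. No exact core lay within 150 bp, and a match with 1 mismatch lay 8 bp from the summit.

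At the xol-1 promoter itself the signal was far below that of the upstream peaks. The call there, 50 bp upstream of the TSS, had a signal of 31.3 in the pool (rank 11261), and the nearest replicate calls had 16.6 (46 bp upstream) and 16.7 (22 bp downstream). Of all protein-coding genes 74% had a lower highest pooled signal within 1000 bp of a TSS, among them the 52.5% with no call there. Inside the xol-1 gene body were 2 pooled calls, with signals of 31 and 18.8. Between the promoter and the distal peaks were calls of 54.9, 32.7 and 18.9, at 3729, 1369 and 1170 bp upstream. Of the 7 pooled calls outside the IDR set, the highest had 54.9. Just outside the window, 5936 bp from the gene, a pooled call had 71.6. At the other 9 genes no pooled call between 5000 and 10000 bp exceeded 39.1.

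**Figure D2:**
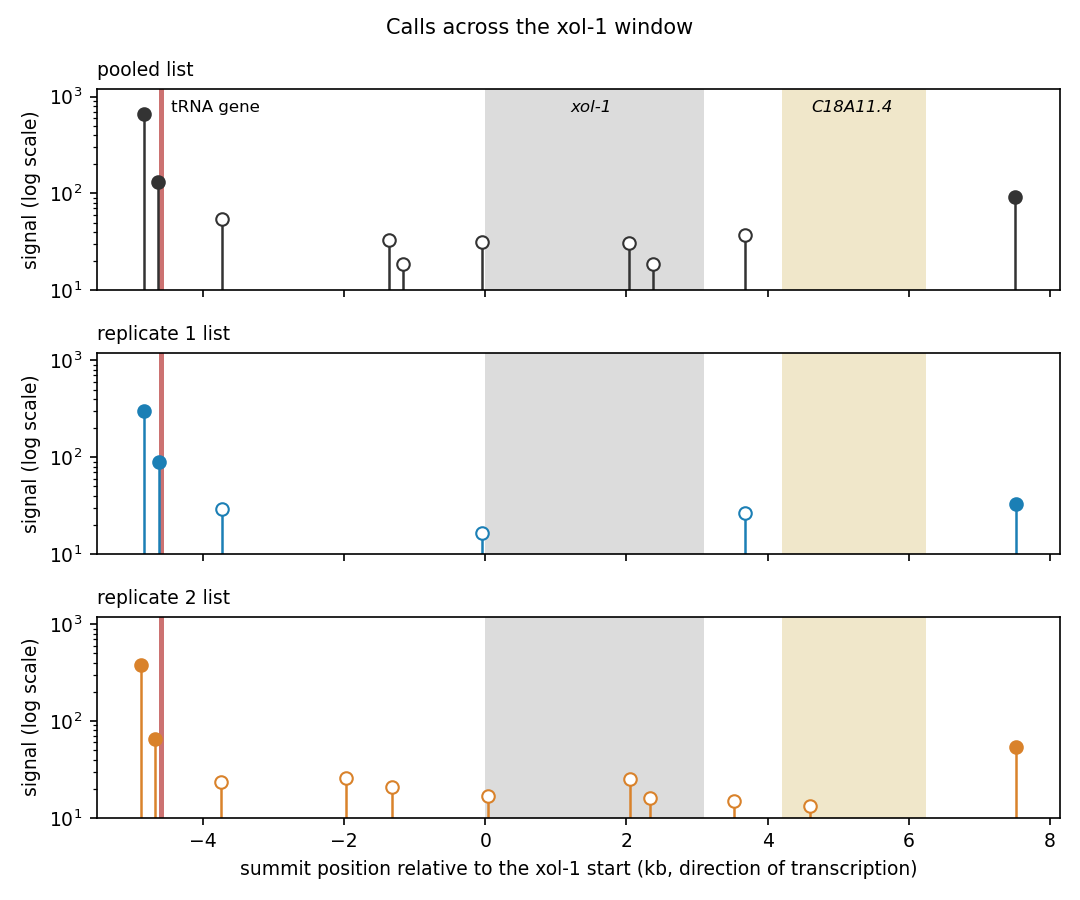
Signal (log scale) of every call in the xol-1 window against the distance of its summit from the xol-1 start, in the pooled list and in each replicate's list. Filled points are IDR peaks or lie within 100 bp of an IDR summit, grey is xol-1, yellow is C18A11.4 and the red band is the tRNA gene. In each list the highest points sit upstream beside the tRNA gene, while the calls at the xol-1 start have 31.3, 16.6 and 16.7.

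The sdc genes encode proteins that load the complex onto X in hermaphrodites. sdc-2 (WBGene00004746, X:11522707-11533450, plus strand), whose product directs assembly of the complex on X and is the target of repression by xol-1, had 5 pooled calls, 4 in replicate 1 and 6 in replicate 2. One was an IDR peak at X:11522023-11522472, with its summit at 11522248, 459 bp upstream of the sdc-2 TSS. Its signal was 102 in the pool (rank 592), 53.5 in replicate 1 (rank 455) and 50.8 in replicate 2 (rank 857), and the replicate summits lay 68 and 0 bp away. The next highest call in the window, in an intron, had 33. Within 1000 bp of its own TSS sdc-2 was the one gene of the 10 with an IDR summit, and 3.31% of all protein-coding genes had one there. The sequence around this promoter peak, with the summit base in capitals, held no match to the core within 150 bp, also with 1 mismatch allowed.
sdc-2 promoter peak, X:11522173-11522323: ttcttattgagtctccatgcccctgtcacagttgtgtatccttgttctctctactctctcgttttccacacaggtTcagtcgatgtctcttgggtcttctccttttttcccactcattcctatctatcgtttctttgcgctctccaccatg
xol-1 and sdc-2 thus differed in both the rank and the place of their strongest call: rank 17 and 4843 bp from the TSS at xol-1, rank 592 and 459 bp at sdc-2.

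sdc-1 (WBGene00004745, X:16275763-16282534, plus strand), which encodes a zinc finger protein of the complex, had 4 calls in each of the 3 lists. The highest lay 4382 bp upstream of its TSS in the pool and 1312 bp from the TSS of ifa-3, with a signal of 67.1 (rank 1469). In replicate 1 the highest had 22 (rank 5701) and in replicate 2 it had 39.8 (rank 1572). No pooled summit lay in the gene body or within 1000 bp of the sdc-1 TSS. sdc-3 (WBGene00004747, V:15039148-15048207, minus strand), another zinc finger protein gene, had 0 calls in the pool, 1 in replicate 1 with a signal of 17.2 in an intron, and 3 in replicate 2 with a highest signal of 20.4. The pooled list ended at a signal of 18.4, and 18.2% of genes had no pooled call in their windows.

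The condensin subunits form the ring-shaped core of the complex. dpy-28 (WBGene00001087, III:10763131-10777076, plus strand), a regulatory CAP-D subunit, had the second highest signal of the 10 genes. Its IDR peak, at III:10759108-10759375 with the summit at 10759210, had 312 in the pool (rank 55), 134 in replicate 1 (rank 57) and 185 in replicate 2 (rank 55). The summit lay 3921 bp upstream of the dpy-28 TSS but 97 bp from that of tasp-1, and the windows of hpl-2, rnf-113 and K01G5.10 reached it too. None of the other 7 pooled calls of dpy-28 exceeded 38.7. Near its own TSS the highest pooled signal was 26.3 at 821 bp upstream. The sequence just upstream of the tasp-1 start is shown with the summit base in capitals, and no core lay within 150 bp.
dpy-28 window, peak at tasp-1, III:10759135-10759285: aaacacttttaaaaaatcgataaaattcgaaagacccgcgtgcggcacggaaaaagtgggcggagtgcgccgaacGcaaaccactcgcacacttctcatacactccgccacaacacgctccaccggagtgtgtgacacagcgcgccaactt
The GC content within 50 bp of this summit was 61.4%, against 35.6% at the xol-1 summit.

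mix-1 (WBGene00003367, II:10824246-10841424, plus strand), the SMC2 subunit shared with the mitotic condensins, had 12 pooled calls, 8 in replicate 1 and 13 in replicate 2. Its IDR peak was inside the gene, at II:10840061-10840510 with the summit at 10840286, in an intron 16040 bp downstream of the TSS and 31 bp from the snoRNA gene M106.6 (II:10840317-10840391, plus strand). The signal was 92 in the pool (rank 744), 24.1 in replicate 1 (rank 4256) and 68.8 in replicate 2 (rank 445). The replicates thus placed it far apart in their orders, and the highest mix-1 call of replicate 1 was another one, with 28.9 (rank 2434), 3974 bp downstream of the TSS. Each replicate summit lay 60 bp from the pooled one, on opposite sides. The mix-1 peak also held GGTTCGA, here in capitals.
mix-1 intron peak, II:10840211-10840361: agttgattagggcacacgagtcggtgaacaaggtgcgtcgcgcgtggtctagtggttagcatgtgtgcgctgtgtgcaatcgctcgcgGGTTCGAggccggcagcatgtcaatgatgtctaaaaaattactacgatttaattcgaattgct
The match lay between the summit and the start of M106.6, and 0 of the 71 words of 31 bases around the summit occur elsewhere in the genome. The nearest protein-coding TSS, that of M106.8, was 3341 bp away.

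The other condensin subunits had no IDR peak. dpy-27 (WBGene00001086, III:3813018-3819679, minus strand), the SMC4 variant of the dosage compensation condensin, had 8 pooled calls. Its highest lay at the promoter, 492 bp upstream of the TSS, with 61.7 in the pool (rank 1777), and the highest calls of the replicates were there too, with 31.5 (rank 1888) and 39 (rank 1662). This was the second highest promoter signal among the 10 genes, and 93.7% of all protein-coding genes had a lower one. dpy-26 (WBGene00001085, IV:12445801-12451335, minus strand), the kleisin subunit, had 3 weak pooled calls, the highest at 22.7 (rank 21821), and none had a replicate summit within 100 bp. In replicate 1 its window held 1 call of 21.4 and in replicate 2 it held 3, up to 23.6.

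The last pair encode proteins with chromatin functions. dpy-21 (WBGene00001080, V:17936282-17949193, minus strand), a Jumonji-domain demethylase of dimethylated lysine 20 on histone H4, had 16 pooled calls, the most of the 10 genes, with 12 in replicate 1 and 14 in replicate 2. The gene body held 9 of them, with signals up to 62.9. Its IDR peak, at V:17951216-17951665, had 104 in the pool (rank 564), 52.8 in replicate 1 (rank 467) and 53.2 in replicate 2 (rank 768). The summit at 17951441 was 2248 bp upstream of the dpy-21 TSS and 508 bp from that of Y59A8B.24, in sequence of 68.3% GC. dpy-30 (WBGene00001088, V:12191519-12192385, plus strand), a subunit shared with the COMPASS methyltransferase complex of histone H3 lysine 4, had 7 pooled calls, all downstream of the short gene and in or near rnp-1, ogdh-2 and ZK836.3. The highest had 39.2 in the pool (rank 6358), 26.9 in replicate 1 (rank 3047) and 22.5 in replicate 2 (rank 8482), and the replicate 1 call lay at another place, in rnp-1.

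**Figure D3:**
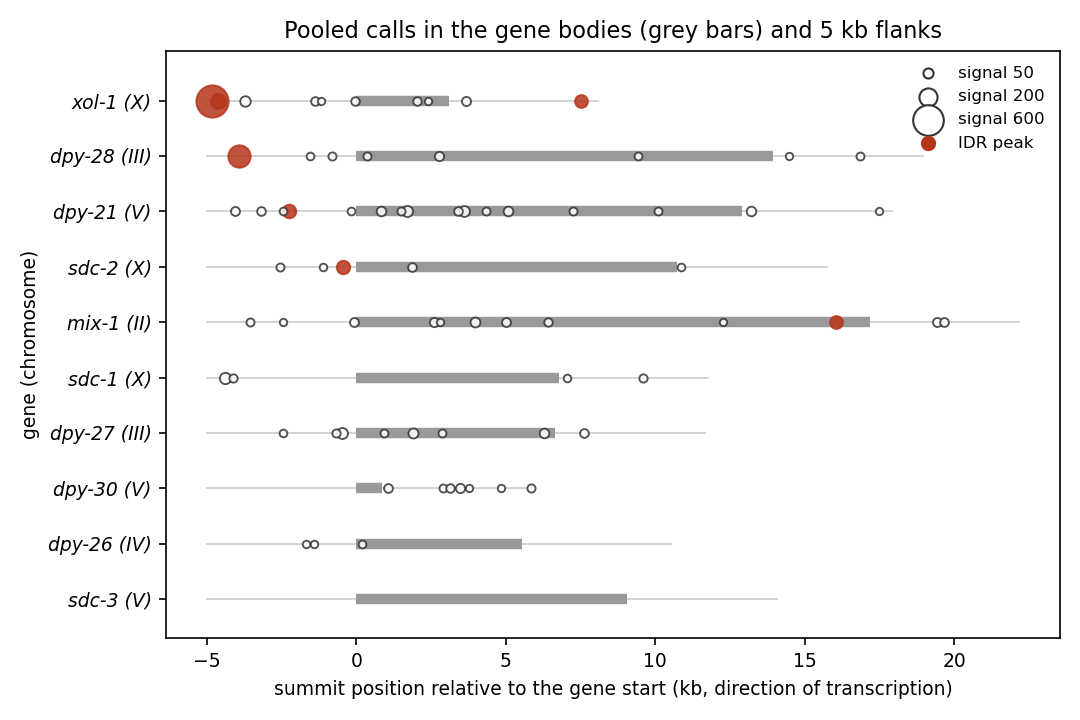
Position of every pooled call in the gene bodies (grey bars) and flanks of 5000 bp, relative to each gene's start in its direction of transcription. Symbol area grows with signal and filled red symbols are the 7 IDR peaks. The xol-1 and dpy-28 peaks (667 and 312) lie far upstream, the sdc-2 peak (102) is next to the start, and the mix-1 peak (92) is near the 3′ end of the gene.

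Across the 10 windows there were 73 pooled calls. By protein-coding gene models 33 lay between genes, 22 in introns, 14 in coding exons, 3 in 3′ UTRs and 1 in another exon. A replicate summit within 100 bp was present in replicate 1 for 33, in replicate 2 for 48, in both for 22 (30.1%) and in neither for 14. Among all nuclear pooled calls the share found in both was 21.1%. The pool contains the reads of each replicate, so these shares are not independent of them. At xol-1, 5 of 10 calls were found in both replicates, at dpy-26 0 of 3 and at dpy-30 0 of 7. Calls per kb of window had a median of 0.388 over the 10 genes and of 0.273 over all protein-coding genes. The median of the highest signal, with a gene without a call counted as 0, was 79.5 over the 10 genes against 37.2 over all. It was 102, the sdc-2 value, for the 3 X-linked genes against 40.6 for all X-linked genes. For the 7 autosomal ones it was 61.7, against 36.8 for all autosomal genes. By median length the 10 genes have wider windows, and the part of window width in these medians was not tested.

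In each list the order of the 10 genes began with xol-1 and then dpy-28. dpy-21 and sdc-2 came next in the pool with 104 and 102, and their order turned between the replicates: 52.8 and 53.5 in replicate 1, 53.2 and 50.8 in replicate 2. mix-1, at 92 in the pool, was below dpy-27 in replicate 1 (28.9 and 31.5) and above both dpy-21 and sdc-2 in replicate 2 (68.8). dpy-30 and dpy-26 also changed places, with 26.9 and 21.4 in replicate 1 but 22.5 and 23.6 in replicate 2. sdc-1 moved too: at 22 it was below dpy-30 in replicate 1, and at 39.8 it was just above dpy-27 (39) in replicate 2. The X-linked genes did not stand together: xol-1 had the highest signal, sdc-2 a middle one and sdc-1 a lower one. dpy-28 on chromosome III exceeded both sdc genes on X, through the peak 97 bp from the tasp-1 TSS. Within 1000 bp of the own TSS the highest pooled signal was 102 at sdc-2, 31.3 at xol-1 and 26.3 at dpy-28. sdc-1 had no pooled call there.

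Among the 7 IDR summits the exact core was found at 1, the highest xol-1 summit, within 150 bp and on either strand. The core with 1 mismatch was also found at the downstream xol-1 peak and at the dpy-21 peak, 98 bp from its summit. With 1 mismatch allowed the core was present at 27.4% of IDR peaks on X and 14.4% of those on autosomes, and at 6.39% of other pooled calls on X and 6.06% on autosomes. On X as a whole 18 of 215 IDR peaks held the exact core (8.37%, Wilson 95% interval 5.36 to 12.8), against 4 of 624 on autosomes (0.641%, 0.25 to 1.64). Of the pooled calls outside the IDR set 0.293% on X and 0.121% on autosomes held it. Windows of 301 bp tiled along the chromosomes held it in 0.127% of cases on X and 0.0809% on autosomes. Of the 20 X-linked IDR peaks with the highest signal 11 held the core, against 0 of the 20 highest autosomal ones (Wilson 95% upper bound 16.1%), and xol-1's was one of 4 X-linked IDR peaks with at least 2 of them. A match is a description of the letters at a site and does not show which protein binds there, and intervals cover counting error only.

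**Figure D4:**
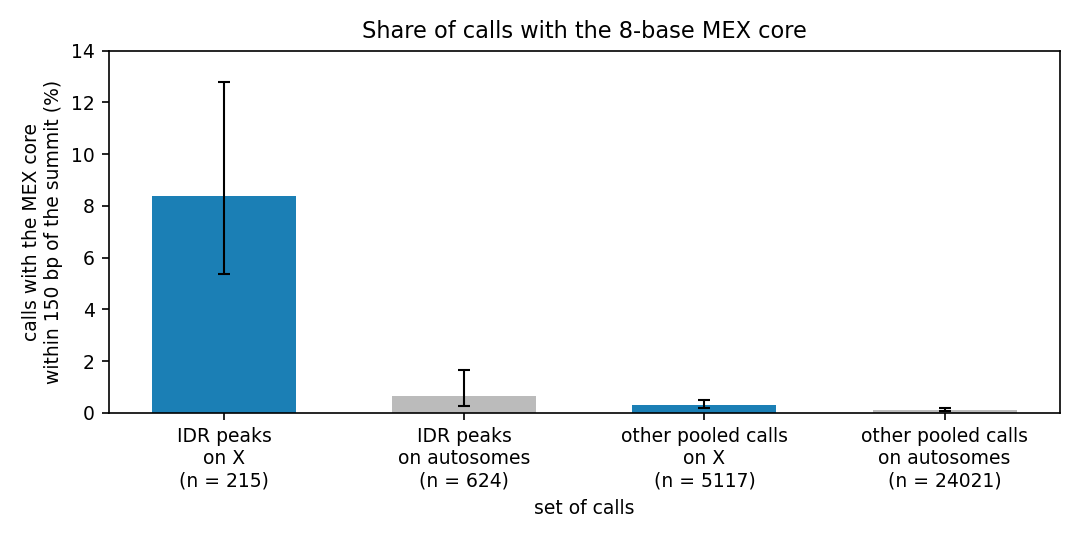
Percent of calls with the 8-base MEX core within 150 bp of the summit on either strand, for IDR peaks and other pooled calls on X (blue) and autosomes (grey), with Wilson 95% intervals. The bar for IDR peaks on X stands at 8.37% and that for IDR peaks on autosomes at 0.641%.

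The GGTTCGA letters seen at the second xol-1 summit and at the mix-1 peak were found within 75 bp of 23 of 215 IDR peaks on X (10.7%) and 31 of 624 on autosomes (4.97%), on either strand. Other pooled calls held them in 1.78% of cases on X and 1.46% on autosomes, and tiled windows of 151 bp in 0.993% on X and 1.11% on autosomes. GGTTCGA and the MEX core share no overlapping match at these summits. The xol-1 match lay inside an annotated tRNA gene, and how many of the other matches lay in tRNA genes was not counted.

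Other genes of or around this pathway were taken as 5 lists of 29 genes in all. Of them 5 had an IDR summit in the window and 28 had a pooled call. Among all protein-coding genes the shares were 10.8% and 81.8%, and the median of the highest pooled signal was 37.2. Among the regulators that act on xol-1, 1 of 5 had an IDR summit. ceh-39, a homeodomain repressor of xol-1 on X, had 88.3 in the pool, 43.7 in replicate 1 and 44.1 in replicate 2, at a summit 51 bp from a tRNA gene and 2596 bp upstream of ceh-39. fox-1, an RNA-binding regulator of xol-1, had 80.1 in the pool, outside the IDR set. The list's median of the highest pooled signal was 38.2.

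Of 11 genes of sex determination 2 had an IDR summit, and their median was 39.3, against 10.8% and 37.2 for all protein-coding genes. tra-2, a membrane protein gene of the hermaphrodite pathway, had 2 IDR summits, the higher with 170 in the pool, 61.4 in replicate 1 and 112 in replicate 2. It lay 36 bp from the snRNA gene sup-39, 710 bp from the TSS of eif-2Bgamma and 2685 bp upstream of tra-2. gld-1, a translational regulator of the germline, had 87.1 in the pool, 37.1 in replicate 1 and 49.9 in replicate 2. That summit was 81 bp from a snoRNA gene and 85 bp from the TSS of T23G11.11. Of the condensin subunits outside the 10 genes, 0 of 5 had an IDR summit, and their median was 42.5, beside the same genome values. hcp-6, a subunit of mitotic condensin II, and smc-4, the SMC4 subunit of both mitotic condensins, had the highest signals, 48 and 45.8.

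Of the genes that methylate histones, set-4 and set-16 had IDR peaks at their own promoters. set-4, which encodes a methyltransferase of lysine 20 on histone H4, had an IDR summit 288 bp upstream of its TSS with 111 in the pool, 52.8 in replicate 1 and 56.6 in replicate 2. Its list partner set-1 had 84.8, just outside the IDR set, and the median of the pair was 98. The set-1 call was not at its promoter but in a coding exon of another gene, 1837 bp downstream of the set-1 TSS. set-16, an H3 lysine 4 methyltransferase gene whose complex contains DPY-30, had the highest signal of the 29 genes, with 489 in the pool (rank 25), 224 in replicate 1 and 268 in replicate 2. That summit, at III:13643579-13643917, lay 162 bp upstream of the set-16 TSS. Of the 6 COMPASS genes it was the one with an IDR summit, against 10.8% of all protein-coding genes. The core subunit gene ash-2 followed with 85.6, and rbbp-5 had no pooled call. The median of these 6 was 65.6, against 37.2 for all protein-coding genes. At dpy-30 itself no pooled summit lay within 1000 bp of the TSS, as was the case for 52.5% of all protein-coding genes.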

How the data were processed

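The data were ChIP-seq peak lists from 2 biological replicates of 1 group. Peaks were called by the authors on each replicate's alignment and on the pooled alignments, with a control alignment, and the IDR set was derived from these lists, per the notes among the files. Which aligner, caller, versions and IDR threshold were used is not given in the sources used here. For each call, the signal that the authors deposited was used within its list to rank and describe, and the deposited -log10 q-value, which was 3.24 for all 862 IDR peaks, was not used for ordering. The deposited summit offset gave each summit. Lists in the ce10 build were not used.

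Genes and TSSs came from Ensembl release 115 (WBcel235) and sequence from the RefSeq assembly of that build, the same as ce11. With Python 3.11.15, NumPy 2.4.6 and SciPy 1.17.1, summits were assigned to windows of 5000 bp around gene bodies, a summit was shared between lists within 100 bp, and motifs were matched letter by letter on both strands. The code was tested on simulated calls. No test was run, since there was 1 group, and depth is unknown. Named besides the 10 genes were the gene with the nearest TSS to each IDR summit, the genes next to xol-1 in signal order, and of each companion list the genes with an IDR summit and its highest ones. The genes, lists and the MEX core were chosen with earlier results of these data known, and GGTTCGA was chosen after the sequences were seen.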

Additional observations from a re-analysis of the deposited data

How the results depend on the processing

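Of 33 alternative settings over 5 summaries, 21 left the value within 1.5 times of a count, within the spread between replicates or within its interval, and 12 moved it. The count of 5 genes with an IDR summit fell to 2, sdc-2 and mix-1, with windows of 1000 or 2000 bp. It was 2, xol-1 and sdc-2, when a summit was given only to the gene with the nearest TSS, and 2, xol-1 and dpy-28, with the 431 IDR peaks of highest signal. Since the IDR set needs both replicates, the 862 calls of highest signal in 1 replicate's relaxed list stood in for it when the other was left out. The count was then 4 without replicate 1, where sdc-2 was lost, and 4 without replicate 2, where mix-1 was lost. The 73 pooled calls became 41 at 1000 bp, 47 at 2000 bp and 31 by nearest TSS, and 54 to 76 in the lists of single replicates. Nuclear calls above the highest xol-1 call were 0.0534% in the pool and 0.0541% to 0.0579% in single replicates. Of calls on X alone 0.244% were above it, and with windows of 1000 or 2000 bp, which leave out the distal peak, 23.5% were. IDR peaks with the MEX core were 8.37% on X and 0.641% on autosomes, and with 1 mismatch allowed 27.4% and 14.4%. With the mismatch the ratio of X to autosomes was smaller, while the difference in percentage points was larger. No paired analysis was possible because the series holds 1 group. Without read counts the depth behind a weak or absent call is unknown, and the intervals given cover counting error only.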

Other observations

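The MEX core was followed from its sites as well as from the peaks. On X 81 sites carried GCGCAGGG, of which 22 had an IDR summit within 150 bp (27.2%) and 36 a pooled summit (44.4%), with 30 in replicate 1 and 31 in replicate 2. On autosomes 233 sites carried it, of which 3 had an IDR summit (1.29%) and 30 a pooled one (12.9%). The xol-1 pair is 2 of the 22 X-linked sites.

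X-linked IDR peaks with the core had a median signal of 682 (18 peaks), against 123 for the 197 without it. The xol-1 peak, at 667, is one of those 18 and one of the middle values that set their median. The median gap between core and summit was 27 bp, and 3 of the 18 peaks lay within 1000 bp of a TSS, against 40.5% of all X-linked IDR peaks. The base before the core was c at 16 of the 22 sites, and the base after it was a at 18, as at both xol-1 sites. The GC content at IDR peaks had a median of 48.5% on X and 49.5% on autosomes, and the pooled xol-1 summit, at 35.6%, was below the lower quartile of X-linked IDR peaks, 41.6%. At the summits of the same peak in replicates 1 and 2 it was 36.6% and 43.6%, so the replicate 2 value was above that quartile. These patterns were looked for after the sequence of the xol-1 peak had been seen.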
